A study of Mus musculus with 24 samples.

Results

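The desmosomal cadherins are the adhesion proteins that span the membrane at desmosomes, and they were followed here in mouse epidermis with and without Mad2. They were taken by name: 8 genes, the desmogleins Dsg1a, Dsg1b, Dsg2, Dsg3 and Dsg4 and the desmocollins Dsc1, Dsc2 and Dsc3, of 28902 gene names on the array. The 8 genes had 16 of the 45281 probes: 1 each for Dsg1a, Dsg3, Dsc2 and Dsc3, 2 for Dsc1, 3 each for Dsg1b and Dsg4, and 4 for Dsg2.

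Desmosomes join neighbouring keratinocytes and anchor their keratin filaments. Desmogleins and desmocollins reach across the gap between cells, and inside the cell they bind plakoglobin (Jup) and the plakophilins, which desmoplakin (Dsp) ties to keratin. In skin the members are layered: Dsg3, Dsc3 and Dsg2 are known mainly from the lower layers, Dsg1 and Dsc1 increase towards the surface, and Dsg4 is known in mice from the hair shaft cortex, where its loss causes hair defects.

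Gene expression was measured on Illumina BeadChip arrays in 24 samples of epidermis of a mixed B6-129Sv strain, separated from dermis with trypsin. Mutants were Mad2f/f; K14Cre+: both Mad2 alleles were floxed and Cre came from a K14 transgene, whose promoter is active in basal keratinocytes, so that the deletion is directed to keratinocytes and not to dermal cells. Mad2 is a part of the spindle checkpoint. Controls at postnatal days 3 to 20 are labelled only as negative for Cre, and their Mad2 alleles are not given in the sources used here. There were 2 mutants and 4 controls at day 3 (P3), 2 and 2 at P6, 2 and 2 at P13, and 2 and 3 at P20. Adults comprised 1 mutant of the same genotype, 2 Mad2f/f; p53f/+; K14Cre+ mutants that also carried a floxed p53 allele, and 1 Mad2f/+; K14-Cre+ control. The labels record no phenotype at P3 and in controls, and call every mutant from P6 on nude. One further P3 array carried a mutant genotype but the type of a control and entered no comparison. The labels do not say that each sample came from a separate animal, so p-values measure only the spread between these samples, which may be technical.

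Between 23.3% and 40.1% of probes were detected per array, and the 75th percentile of signal lay 21.2 to 182 intensity units above background. Mad2l1, the gene of Mad2, had a log2 intensity of 4.65 to 6.41 in the mutants of all ages and of 6.50 to 9.56 in the controls, so the groups did not overlap. The array with conflicting labels, at 7.89, lay inside the range of the P3 controls (7.09 to 7.99). The samples differed in transcripts of other tissues. The mean log2 intensity of 20 fibroblast genes was 10.29 to 10.58 in P6 controls and 5.51 to 5.58 in P6 mutants. It was 9.26 to 9.76 on both sides at P13, and 5.47 to 7.49 at P3 and P20. In adults it was 10.79 in the control and 10.09 in the mutant without the p53 allele, but 5.35 and 5.55 in the p53f/+ mutants. In such bulk samples, fewer cells of a type and less RNA per cell cannot be told apart.

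A probe was called detected where its detection p-value was under 0.01, and values below are log2 intensities after background correction and quantile normalization. In adult p53f/+ mutant 2, which had no detection p-values, a probe was called detected above the matching upper quantile of the background estimated from its chip. Dsg1b, Dsg2, Dsc1 and Dsc3 were detected in 24 of 24 arrays at their brightest probe. Dsg4 was detected in 7 of 24. The probes of Dsg1a, Dsg3 and Dsc2 and the second probe of Dsc1 were detected in 0 of 24 arrays, so 5 of the 8 members were tested and 3 were not. The Dsg1a probe stayed between 4.40 and 5.04, the Dsg3 probe between 4.37 and 5.21 and the Dsc2 probe between 4.38 and 4.87, not well above background on any array. Dsg1a, Dsg1b and Dsg1c are close copies of one ancestral gene, and whether the Dsg1b probes also bind RNA of the others was not tested.

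**Figure D1:**
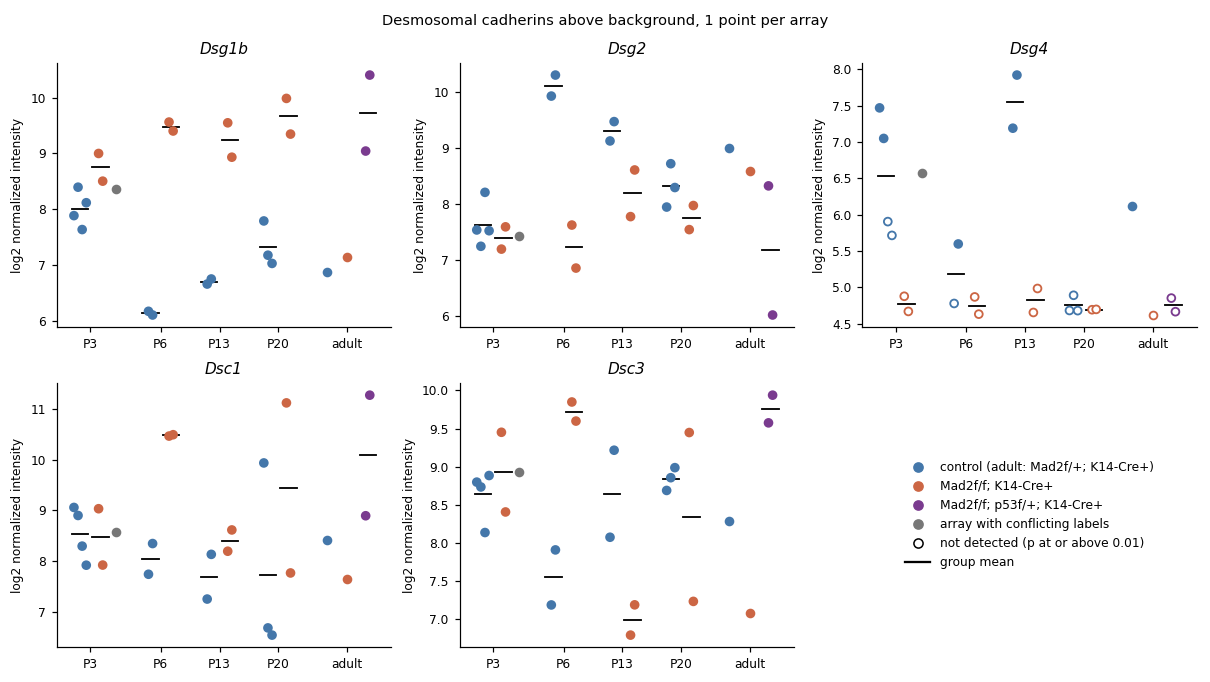
Log2 normalized intensity (vertical axis) of the 5 members above background, 1 point per array, by age, with controls in blue, mutants in orange, p53f/+ mutants in purple and the array with conflicting labels in grey. Open points were not detected and black lines are group means. Mutants lie above controls for Dsg1b at every age, and every detected Dsg4 point is a control or the grey array.

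Mutants and controls were compared at each age with limma over all 14215 genes, and a member is said to have risen or fallen where its p, adjusted by Benjamini and Hochberg over all of these genes, was under 0.05. At P3, 1 of the 8 members fell (Dsg4), 4 did not pass and 3 were not tested, where 1.93% of all genes passed and 1.65% were lower. At P6, 2 rose (Dsg1b and Dsc3) and 1 fell (Dsg2), where 22.8% of all genes passed, 9.5% higher and 13.2% lower. At P13, 1 rose (Dsg1b) and 2 fell (Dsg4 and Dsc3), where 20.5% passed, 9.99% higher and 10.6% lower. At P20, Dsg1b rose and 4 members did not pass, where 10.1% passed and 4.41% were higher. In adults Dsg1b rose and the 4 others tested did not pass, where 11.9% passed and 5.23% were higher. The adult control was 1 array of another genotype, Mad2f/+; K14-Cre+, whose spread was taken to be that of the other groups. These counts of 1 to 3 members describe the members only and are not read as more than the share of all genes that passed. Among the 5 members tested, Dsg1b passed in 4 of the 5 comparisons, the adult one with this limit, Dsg4 and Dsc3 in 2 each, Dsg2 in 1 and Dsc1 in none. The Dsg4 probe tested was detected in no mutant, so its comparisons could give only falls or nothing.

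**Figure D2:**
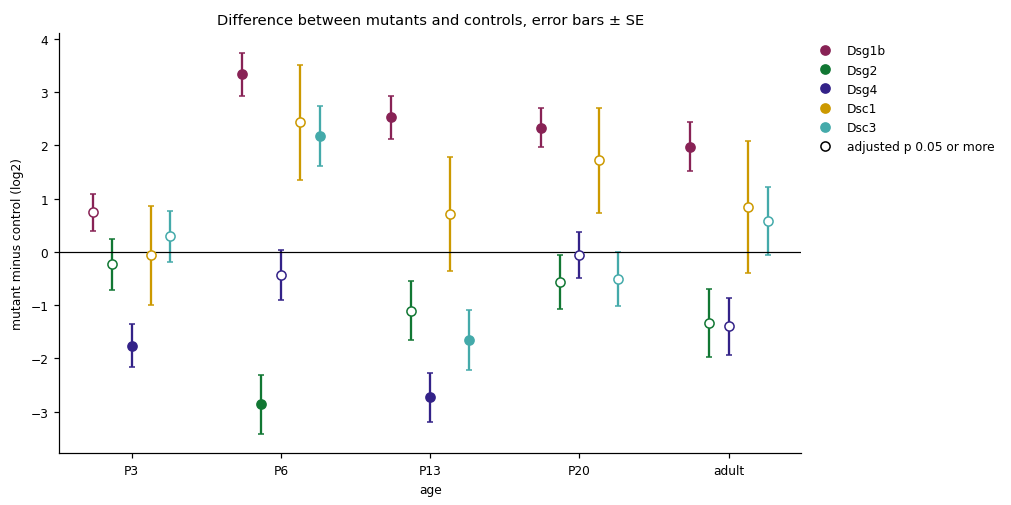
Mutant minus control difference in log2 intensity (vertical axis, error bars ± SE) at each age for the 5 members tested. Filled points passed the test. Dsg1b lies above 0 at all ages, and Dsc3 lies at 2.18 at P6 and at -1.66 at P13.

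Dsg1b, the desmoglein of the spinous and granular layers, was higher in mutants from P6 on. At P6 the mutants lay at 9.56 and 9.40 and the controls at 6.17 and 6.10. Both mutants were above both controls, at an age at which 74.4% of all genes had groups that did not overlap. The difference was 3.34 ± 0.40 (SE; adjusted p = 2.07e-05, limma), a 10.2-fold higher level. At P13 the mutants lay at 9.55 and 8.93 and the controls at 6.66 and 6.75, again without overlap (72.7% of all genes), and the difference was 2.53 ± 0.40 (adjusted p = 0.000339, limma). At P20 the mutants lay at 9.98 and 9.35 and the controls at 7.79, 7.18 and 7.03. The groups did not overlap there either (24.3% of all genes), and Dsg1b was 5.04-fold higher (2.33 ± 0.37; adjusted p = 0.000774, limma), a call lost when only the P20 arrays entered the fit (adjusted p = 0.111). The P20 arrays lay on 2 chips, called F and G here, and the difference was 2.20 on chip F and 2.24 on chip G. On the values normalized by the authors the Dsg1b differences were smaller, 1.67 at P6, 1.34 at P13 and 1.42 at P20, and each passed.

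At P3, before any recorded phenotype, Dsg1b was at 8.998 and 8.50 in mutants and at 7.88, 8.39, 7.64 and 8.12 in controls. Both mutants were above every control (22.8% of all genes did not overlap), and the difference of 0.74 ± 0.35 did not pass the test (adjusted p = 0.63, limma). The effect differed between P6 and P3, and no other pair of ages passed. From P3 to P6 Dsg1b fell by 1.87 in controls and rose by 0.73 in mutants, the rise without a call (adjusted p = 0.275, limma). The effect exceeded that of P3 by 1.79 ± 0.53 at P13 (adjusted p = 0.0504, limma) and by 1.59 ± 0.51 at P20 (adjusted p = 0.112, limma). It was larger by 2.60 ± 0.53 at P6 than at P3 (adjusted p = 0.00456, limma; 11% of all genes passed), and the mean effect of P6, P13 and P20 exceeded that of P3 by 1.99 ± 0.42 (adjusted p = 0.00893; 6.45% of genes). The latter lost its call without P3 mutant 2 (1.75, adjusted p = 0.0962), with the mean of the probes (1.37, adjusted p = 0.0744) and when the mean of the fibroblast genes entered as a covariate (2.23, adjusted p = 0.177). With that covariate the difference between P6 and P3 was 3.09 and not called (adjusted p = 0.36, limma). At P6 the fibroblast mean was 5.51 to 5.58 in mutants and 10.29 to 10.58 in controls. The covariate thus nearly coincided with genotype at P6, where the fit cannot separate them. The same holds for the p53f/+ mutants against the adult control. No conclusion is drawn from calls lost with it there.

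Dsg1b in controls was lowest at P6. The ages P3 to P20 lay on separate chips, so age and chip cannot be told apart in comparisons of ages, here and below. Control means were 8.01 ± 0.32 (SD, n = 4) at P3, 6.14 ± 0.047 (n = 2) at P6, 6.70 ± 0.064 (n = 2) at P13 and 7.33 ± 0.40 (n = 3) at P20, and they differed across ages (moderated F test of limma, adjusted p = 0.00202; 45.1% of all genes passed). This call was lost with the mean of the probes (adjusted p = 0.364) and with the fibroblast covariate (adjusted p = 0.423). The fibroblast list mean in controls ran the other way, 5.60 to 5.89 at P3 and 10.29 to 10.58 at P6. Dsg1b fell in controls from P3 to P6 by 1.87 (adjusted p = 0.000718, limma; 33.4% of genes passed), was lower at P13 than at P3 (-1.30; adjusted p = 0.0118; 25.7% of genes) and was higher at P20 than at P6 by 1.19 (adjusted p = 0.0239, limma; 27.6% of genes). Neighbours in the order P3, P20, P13, P6 did not differ beyond their spread (adjusted p = 0.148, 0.237 and 0.598; 18.3%, 24.4% and 1.84% of genes passed in these pairs). Mutant means were 8.75 ± 0.35, 9.48 ± 0.11, 9.24 ± 0.44 and 9.67 ± 0.45 (SD, n = 2 each) at P3, P6, P13 and P20, and no pair of ages passed in mutants (adjusted p = 0.258 to 0.856, limma). In those 6 pairs 3.07% (P6 against P3), 26.3% (P13 against P3), 3.58% (P20 against P3), 17.4% (P13 against P6), 0.76% (P20 against P6) and 12.4% (P20 against P13) of all genes passed.

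In adults Dsg1b split by sample. The p53f/+ mutants lay at 9.04 and 10.40, the mutant without that allele at 7.15 and the control at 6.88. All 3 mutants were above the control (52% of all genes did not overlap), and the mean difference was 1.98 ± 0.47 (adjusted p = 0.00936, limma). It lost its call with only the adult arrays (adjusted p = 0.302) and with the fibroblast covariate (2.31, adjusted p = 0.334). The difference was 1.21 without p53f/+ mutant 2 (adjusted p = 0.0808), the array whose background had to be taken from its chip, and 2.84 without the mutant that lacks the p53 allele. The latter had a fibroblast list mean of 10.09, near the control. The p53 allele and the transcripts of dermal cells cannot be told apart in these 3 arrays.

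The 2 dimmer Dsg1b probes were detected in mutants only, in 5 and 7 arrays. They thus passed the detection filter through the group in which they were high, so that their p-values are no separate support for Dsg1b. In P6 mutants they lay at 6.45 and 6.25 and at 6.66 and 6.39, against 4.63 to 4.73 in controls, where neither was detected. Their levels in mutants were at least 2.12-fold (second probe) and at least 2.40-fold (dimmest probe) higher (adjusted p = 0.0194 and 0.0236 in a limma fit of all 20431 detected probes). A fold written as at least is the mean of the brighter group over the dim group's mean, with each dim array raised to its lowest detected signal where it lay below that. At P13 one of them was at 6.12 and 6.23 in mutants and not detected in controls (adjusted p = 0.219), and the other was not detected in any P13 array. With the mean of a gene's probes in place of the brightest, Dsg1b at P13 was at 1.16 (adjusted p = 0.0654).

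Genes of the spinous and granular layers moved beside Dsg1b. Of 22 such genes, 14 rose at P6, 16 rose and 1 fell at P13, 7 rose and 2 fell at P20, and 12 rose in adults. Their median difference was 0.01 at P3, 1.75 at P6 and 2.22 at P13, and the median of all genes lay between -0.04 and 0.03. Of all genes, 9.5% rose at P6, 9.99% at P13, 4.41% at P20 and 5.23% in adults. At P3 1.93% passed in either direction. Genes of stressed keratinocytes, such as the keratin Krt16 and the envelope protein gene Sprr2d, rose in all 5 comparisons. Of 12 such genes, 3 rose at P3, 10 at P6, 8 at P13, 8 at P20 and 7 in adults, with medians of 0.47, 5.43, 5.07, 4.87 and 3.43. Their mean was 12.86 to 13.81 in P6 mutants and 8.42 to 8.46 in P6 controls. Of 13 myeloid and Langerhans cell genes, 1 rose at P3, 8 rose at P6 (median 1.49), 4 rose at P13 (1.25) and 1 fell in adults (-1.02). The part of these cells and states in the Dsg1b values was not tested. The fibroblast list differed as well at P6, where 19 of 20 tested genes fell, beside 13.2% of all genes. With its mean as a covariate Dsg1b at P6 was at 3.77 with no call (adjusted p = 0.235, limma). That fit cannot separate the list from genotype at P6, where they nearly coincided. At P13, where the fibroblast list was 9.26 to 9.35 in mutants and 9.31 to 9.76 in controls, Dsg1b was higher in both mutants. At P20 the list was 5.47 to 5.85 in mutants and 5.85 to 7.49 in controls.

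**Figure D3:**
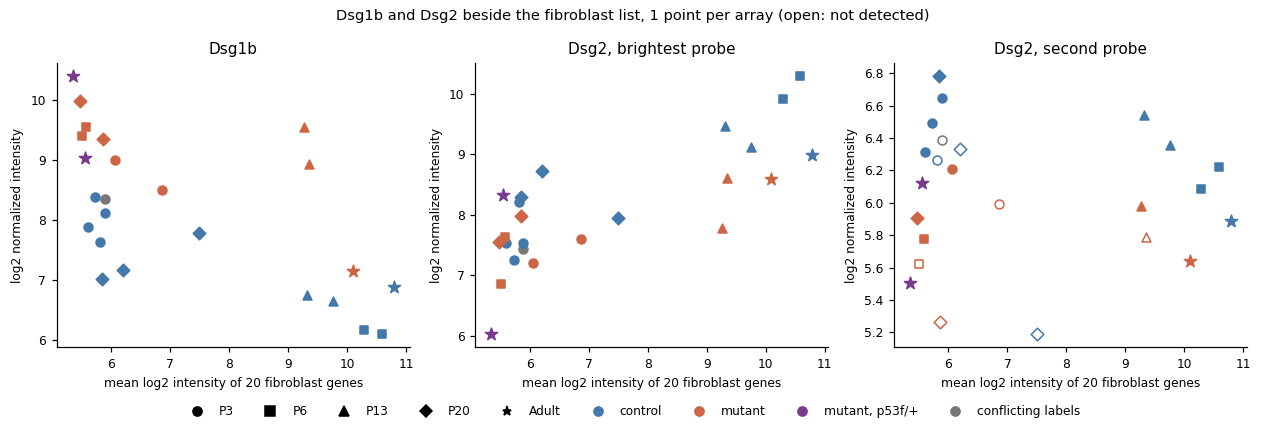
Log2 normalized intensity of Dsg1b, of the brightest Dsg2 probe and of the second Dsg2 probe (vertical axes) against the mean log2 intensity of 20 fibroblast genes (horizontal axis), 1 point per array, with the age by symbol and the genotype by colour. The P13 mutants (orange triangles) stand at 9.55 and 8.93 for Dsg1b at a fibroblast level near that of the P13 controls, and the highest points of the brightest Dsg2 probe are P6 controls with a fibroblast level of 10.29 to 10.58.

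Dsg2, a desmoglein of simple epithelia and of the lower epidermis and hair follicle, fell in mutants at P6 at its brightest probe. That probe lay at 7.63 and 6.86 in P6 mutants and at 9.92 and 10.30 in controls, without overlap (74.4% of all genes). It fell by 2.87 ± 0.55 on the log2 scale (adjusted p = 0.00129, limma), a 7.29-fold lower level. At P13 it lay at 7.78 and 8.61 in mutants and 9.12 and 9.47 in controls. The mutants were below both controls there (72.7% of all genes did not overlap). The difference of -1.10 ± 0.55 did not pass (adjusted p = 0.185, limma). It passed in 5 of 13 other settings (adjusted p down to 0.0224), among them the chip as a fixed block (adjusted p = 0.0412).

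The other ages showed smaller differences at this probe. P3 mutants lay at 7.20 and 7.60 and controls at 7.54, 7.25, 8.21 and 7.53, with overlap (-0.23 ± 0.48). P20 mutants lay at 7.55 and 7.97 and controls at 7.95, 8.72 and 8.30, with overlap (-0.56 ± 0.51). Adult mutants lay at 8.59 without the p53 allele and at 8.32 and 6.03 with it, against 8.99 in the control (-1.34 ± 0.64; adjusted p = 0.215, limma). A fixed block for the chip gave an adult difference of -2.11 (adjusted p = 0.0083), and without p53f/+ mutant 2 the difference was -0.53. The effect at P6 exceeded that at P3 by -2.63 ± 0.73 (adjusted p = 0.0292, limma), a call lost in 6 of 10 fits that left out an array.

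The brightest Dsg2 probe was highest in controls at P6 (10.11 ± 0.26, SD, n = 2), then at P13 (9.30 ± 0.24, n = 2), P20 (8.32 ± 0.39, n = 3) and P3 (7.63 ± 0.41, n = 4). The rise from P3 to P6 was 2.48 ± 0.48 (adjusted p = 0.000953, limma), and the fall from P6 to P20 was 1.79 (adjusted p = 0.0146, limma). Neighbours in this order did not differ beyond their spread (adjusted p = 0.57, 0.179 and 0.292, limma). These ages lay on different chips, so age and chip cannot be told apart. The fibroblast list mean had nearly the same order in controls, from 10.29 to 10.58 at P6 to 5.60 to 5.89 at P3. With that mean as a covariate the P6 difference was -2.65 and no longer called (adjusted p = 0.466, limma). At P6 the covariate nearly coincided with genotype, so this fit cannot separate them. The part of these transcripts in the Dsg2 values was not tested.

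The 3 other Dsg2 probes were also lower in both P6 mutants than in both controls, by less, and did not pass. At P6 74.4% of all genes had groups that did not overlap, so this is no separate support for the brightest probe. The second probe lay at 5.78 and 5.62 in mutants and 6.08 and 6.22 in controls (-0.45 ± 0.39; adjusted p = 0.473, limma over probes). The next lay at 4.96 and 5.07 in mutants, where it was not detected, and at 5.49 and 5.76 in controls (adjusted p = 0.563). The last was not detected in any P6 array. Over 23 arrays the brightest probe correlated with them at Pearson's r = 0.27, 0.31 and 0.43, as a description of arrays that share ages and chips. With the mean of the 4 probes, Dsg2 at P6 was at -1.05 (adjusted p = 0.0692). The call for Dsg2 thus rested on 1 of 4 probes, and whether these probes read different transcripts was not tested.

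Dsg4, the desmoglein of the hair cortex, was detected at its brightest probe in controls and in no mutant. It was detected in 2 of 4 P3 controls, 1 of 2 P6 controls, 2 of 2 P13 controls, the adult control and the array with conflicting labels, and in none of the 11 mutants or the P20 controls. The second probe was detected in 2 mutants, P6 mutant 2 (5.99) and adult p53f/+ mutant 1 (6.16). Among arrays with a group, Dsg4 thus passed the detection filter through controls alone, so that its differences could only be falls or nothing. At P13 the controls lay at 7.19 and 7.92, and the mutants, not detected, at 4.66 and 4.98. Both controls were above both mutants (72.7% of all genes did not overlap). Dsg4 fell, being at least 3.15-fold lower (difference -2.73 ± 0.47, adjusted p = 0.000579, limma). The probe passed the filter through controls, so its p-values for mutants against controls, here and below, are no separate support for a fall.

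The 2 other Dsg4 probes also fell at P13. In controls they lay at 6.42 and 6.61 and at 6.54 and 6.97, and in mutants, where they were not detected, at 5.02 and 5.02 and at 5.13 and 4.88. The second was at least 1.54-fold lower and the third at least 1.81-fold (adjusted p = 0.0164 and 0.00158, limma over probes). The third was detected in controls alone, and so passed the detection filter through the group in which it was high. Its p-value is thus no separate support for the fall of Dsg4. At P6 the second probe ran the other way, at 5.59 and 5.99 in mutants against 4.99 and 5.08 in controls, where it was not detected (adjusted p = 0.221). It correlated with the brightest probe at r = 0.56, and the third did at r = 0.92 (23 arrays).

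At P3 the controls lay at 7.47, 7.05, 5.90 and 5.71, the last 2 of them not detected, and the mutants at 4.88 and 4.67. All 4 controls were above both mutants (22.8% of all genes did not overlap). Dsg4 was at least 1.24-fold lower (difference -1.76 ± 0.40, adjusted p = 0.0301, limma). This call was lost in 4 of 6 fits that left out an array (-2.03 to -1.45, adjusted p up to 0.333), among them those without either mutant or without control 1 or 2, and in 8 of 15 other settings, with adjusted p up to 0.492. At P6 mutants lay at 4.87 and 4.63 and controls at 4.78 and 5.60, with overlap (adjusted p = 0.568). At P20 all 5 arrays lay between 4.68 and 4.89 and none was detected. In adults the mutants lay at 4.62 without the p53 allele and 4.85 and 4.67 with it, and the control at 6.11, at least 1.38-fold above them (adjusted p = 0.112, limma).

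The first coat of the mouse grows after birth, and its follicles then pass through regression and rest before a new cycle. Control means of Dsg4 were 6.53 ± 0.86 (SD, n = 4) at P3, 5.19 ± 0.58 (n = 2) at P6, 7.55 ± 0.52 (n = 2) at P13 and 4.75 ± 0.12 (n = 3, none detected) at P20, and differed across ages (adjusted p = 0.0002, moderated F test of limma). The order was P13, P3, P6 and P20. In it P13 and P3 (adjusted p = 0.075, limma) and P6 and P20 (adjusted p = 0.479, limma) did not differ beyond their spread. These ages lay on different chips, so age and chip cannot be told apart. Chip G held 2 of the 3 P20 controls, and its arrays were the dimmest of all. Dsg4 in controls fell from P13 to P20 by 2.80 ± 0.43 (adjusted p = 0.000153, limma; 24.4% of genes passed), and the level at P13 exceeded that at P6 by 2.37 (adjusted p = 0.0141, limma; 1.84% of genes). In the same controls the mean of 14 hair shaft genes, mostly hair keratins, was 12.01 to 12.80 at P3, 11.82 to 12.24 at P6, 12.69 to 12.96 at P13 and 5.54 to 7.14 at P20. Dsg4 thus did not match the hair shaft list at P6, where the list was high in both controls and Dsg4 was detected in 1.

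In mutants the hair shaft list was 8.91 to 8.93 at P3, 8.87 to 9.48 at P6, 5.67 to 6.27 at P13 and 5.17 to 6.51 in adults. Of its 14 tested genes 12 fell at P13, where 10.6% of all genes fell. The fitted difference between mutants and controls was lower at P13 than at P6 by 2.30 ± 0.66 (adjusted p = 0.0363, limma; 10% of genes passed) and higher at P20 than at P13 by 2.68 ± 0.63 (adjusted p = 0.0172, limma; 7.69% of genes). The first call was lost in 6 of 8 fits that left out an array and the second in 2 of 9. With every mutant below background, both values follow the control levels given above.

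**Figure D4:**
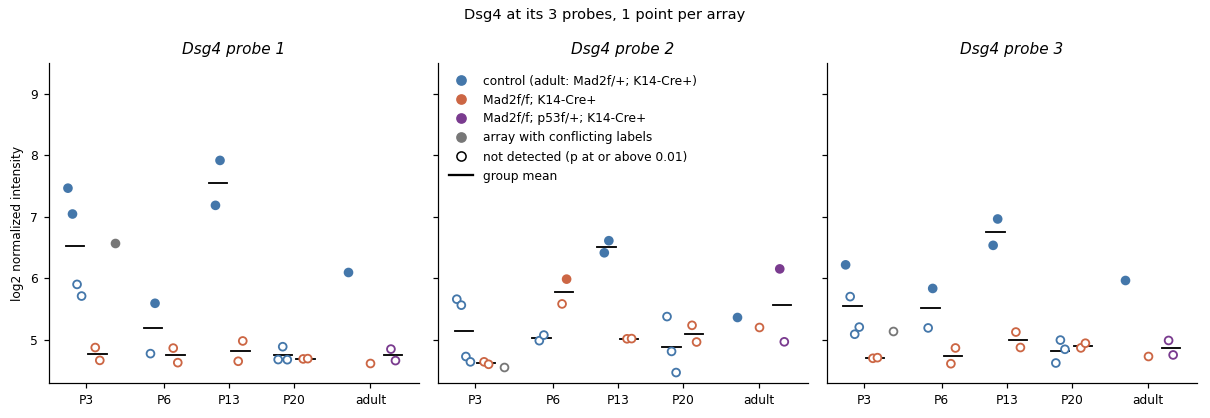
Log2 normalized intensity (vertical axis, shared) of Dsg4 at each of its 3 probes, 1 point per array, by age and genotype, with open points not detected and black lines at group means. All 3 probes are detected in both P13 controls and in neither P13 mutant, and the second probe is above its control points at P6 in both mutants.

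Dsc1, the desmocollin of the upper layers, did not pass the test at any age in the fit without chips. At P6 the mutants lay at 10.46 and 10.49 and the controls at 7.74 and 8.35. Both mutants were above both controls, at an age at which 74.4% of all genes had groups that did not overlap. The mean difference was 2.43 ± 1.08 (adjusted p = 0.122, limma). Its SE was set by a spread that is pooled over all groups and large at P20. The difference passed with only the P6 arrays (adjusted p = 0.000702), with a fixed block for the chip (2.74, adjusted p = 0.00152) and with a random block (2.58, adjusted p = 0.0123). It was 6.33 with the fibroblast covariate, without a call (adjusted p = 0.373, limma). That fit cannot separate genotype from the covariate at P6.

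The P20 arrays of Dsc1 differed more between chips than between genotypes. On chip F the mutant lay at 11.12 and the control at 9.94, and on chip G the mutant lay at 7.77 and the controls at 6.68 and 6.54. The groups overlapped over both chips (1.72 ± 0.98; adjusted p = 0.316, limma), while within each chip the mutant was higher, by 1.18 on F and by 1.15 on G. The fit with a fixed block for the chip gave 1.17 (adjusted p = 0.042). The deposited signals of chip G already had background subtracted, and its 3 P20 arrays were the dimmest of all, with the 75th percentile 21.2 to 28.6 units above background.

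Elsewhere Dsc1 differed little between groups relative to its spread. P3 mutants lay at 9.03 and 7.92 and controls at 9.06, 8.90, 8.30 and 7.92, with overlap (-0.07 ± 0.93). P13 mutants lay at 8.20 and 8.61 and controls at 7.25 and 8.13, without overlap (72.7% of all genes). The P13 difference was 0.71 ± 1.08 (adjusted p = 0.718, limma). Adult p53f/+ mutants lay at 8.89 and 11.27, the mutant without that allele at 7.64 and the control at 8.42, so that the mutants lay on both sides of the control (0.85 ± 1.24). A fixed block for the chip gave an adult difference of 1.64 (adjusted p = 0.0323, limma). In the fit without chips the adult difference was -0.15 when p53f/+ mutant 2 was left out. Dsc1 in controls was not shown to differ across ages (adjusted p = 0.77, moderated F test of limma).

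**Figure D5:**
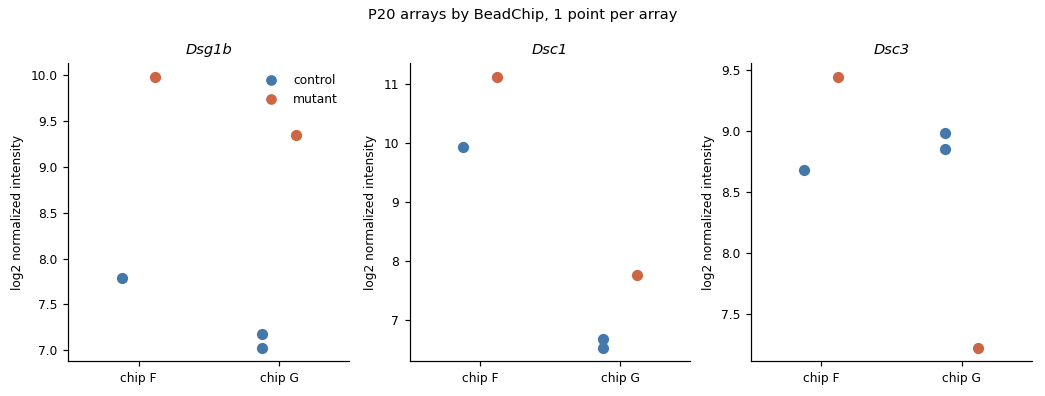
Log2 normalized intensity (vertical axes) of Dsg1b, Dsc1 and Dsc3 in the 5 P20 arrays, split by BeadChip, with controls in blue and mutants in orange. The mutant is above the controls of its own chip for Dsg1b and Dsc1 on both chips, and for Dsc3 it is above on chip F and below on chip G.

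Dsc3, the desmocollin of the basal and lower spinous layers, changed in opposite directions at P6 and P13. At P6 the mutants lay at 9.85 and 9.60 and the controls at 7.18 and 7.90, without overlap (74.4% of all genes). Dsc3 was 4.54-fold higher in these mutants (difference 2.18 ± 0.56, adjusted p = 0.00972, limma). At P13 the mutants lay at 6.78 and 7.18 and the controls at 8.07 and 9.21. Both mutants were below both controls (72.7% of all genes did not overlap). Dsc3 was 3.16-fold lower (difference -1.66 ± 0.56, adjusted p = 0.0464, limma). The 2 effects differed by -3.84 ± 0.79 (P13 minus P6; adjusted p = 0.00514, limma), and this difference kept its call in each of the 8 fits that left out an array.

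The single calls of Dsc3 were less firm. At P6 the call was lost without mutant 1 (2.06) and without control 1 (1.82), fits that leave 1 array in a group. With the fibroblast covariate the sign turned (-0.77, adjusted p = 0.837, limma). That covariate nearly coincided with genotype at P6, so the fit cannot separate them and no conclusion is drawn from the sign. At P13 it was lost without mutant 1, mutant 2 or control 2, where the difference was -1.46, -1.86 and -1.09. The P13 call was also lost in 4 of 13 other settings, among them the authors' normalized values (-0.85, adjusted p = 0.103, limma). With the fibroblast covariate the difference between the P13 and P6 effects was -1.03 (adjusted p = 0.787, limma), with the same limit at P6.

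Among the mutants Dsc3 fell from P6 to P13 by 2.74 ± 0.56 (adjusted p = 0.00347, limma), where 17.4% of all genes passed. These ages lay on different chips, so age and chip cannot be told apart. In controls the means were 8.63 ± 0.34 (SD, n = 4) at P3, 7.54 ± 0.51 (n = 2) at P6, 8.64 ± 0.81 (n = 2) at P13 and 8.84 ± 0.15 (n = 3) at P20, and no difference across ages passed (adjusted p = 0.164, moderated F test of limma). The mean of 13 basal layer genes, among them Krt5 and Krt14, was 8.88 to 9.26 in P6 mutants and 10.45 to 10.72 in P6 controls. That was opposite in direction to Dsc3, but of the 13 genes only 2 fell and 0 rose at P6 (median difference -0.83). Of all genes, 13.2% fell at P6. At P13 the mean of the list was 10.29 to 10.59 in mutants and 10.36 to 10.42 in controls.

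At P20 the Dsc3 mutants stood apart from each other by chip. The mutant on chip F lay at 9.45 and its control at 8.69, and the mutant on chip G lay at 7.23 and its controls at 8.85 and 8.98. The difference was 0.76 on chip F and -1.69 on chip G, and -0.50 ± 0.51 over both (adjusted p = 0.619, limma). On chip G alone it passed (adjusted p = 0.0296), with 1 mutant array that was the dimmest of the series. P3 mutants lay at 9.45 and 8.40 and controls at 8.79, 8.73, 8.13 and 8.88, with overlap (0.29 ± 0.49). In adults the p53f/+ mutants lay at 9.57 and 9.94, the mutant without that allele at 7.07 and the control at 8.28 (0.58 ± 0.65; adjusted p = 0.671, limma).

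The partners of the cadherins inside the cell were measured in full, with 16 of 16 plaque and partner genes tested. At P3, 1 fell. At P6, 3 rose and 1 fell, at P13, 5 rose and 1 fell, at P20, 2 rose, and in adults, 3 rose and 1 fell. Their median difference was 0.30 at P6 and 0.46 at P13. Of all genes, 1.93% passed at P3, 22.8% at P6, 20.5% at P13, 10.1% at P20 and 11.9% in adults. The plaque counts are not read as more than these shares. Plakoglobin (Jup), which binds desmosomal cadherins inside the cell, rose at P6 (2.39 ± 0.26), P13 (1.46 ± 0.26), P20 (1.24 ± 0.24) and in adults (2.33 ± 0.30), the same comparisons in which Dsg1b rose. Its P13 value was chosen after the values were seen. Flot2, a membrane raft protein, fell at P6 (-2.32 ± 0.36) and in adults (-1.32 ± 0.41). The plakophilin gene Pkp1 rose at P6 (1.39 ± 0.28), and corneodesmosin (Cdsn), an extracellular protein of the modified desmosomes of the horny layer, rose at P13 (1.56 ± 0.24) and in adults (1.37 ± 0.28). Plakophilin 2 (Pkp2), known from the basal layer and the hair follicle, fell at P3, at least 2.91-fold, and at P13 (-2.51 ± 0.62). Dsg1c, the third copy of Dsg1, was at least 2.40-fold higher at P13 (adjusted p = 0.000561, limma) and was not detected in P13 controls.

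Genes of other junctions are given for comparison. Beside them, 22.8% of all genes passed at P6, 20.5% at P13, 10.1% at P20 and 11.9% in adults. The junction counts are not read as more than these shares. Of 12 adherens junction genes, 1 rose at P6, 1 rose and 1 fell at P13 and at P20, and 1 rose in adults. Nectin1, an adhesion protein of adherens junctions, was the one that rose each time, by 2.68 ± 0.46 at P6. Of 11 tight junction genes tested, 2 rose at P6, 2 fell at P13, 1 fell at P20 and 1 rose in adults. At P13 the claudin Cldn1 (-2.40 ± 0.45) and occludin (Ocln, -1.58 ± 0.40) fell, as Dsc3 did.

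Of 15 tested transcription factors linked in the literature to keratinocyte or hair differentiation, 1 fell at P3, 2 rose and 4 fell at P6, 4 rose and 5 fell at P13, 2 rose and 1 fell at P20, and 2 rose and 2 fell in adults. The shares of all genes that passed were 1.93% at P3, 22.8% at P6, 20.5% at P13, 10.1% at P20 and 11.9% in adults. Grhl3, a factor of barrier formation, rose at P6 (2.41 ± 0.36) and P13 (1.86 ± 0.36). Dsg1b rose at these ages, and also at P20 and in adults. Hoxc13, a factor of hair keratin genes, fell at P6 (-3.20 ± 0.59), where Dsg4 did not pass, and at P13 (-3.34 ± 0.59), where Dsg4 fell. Lef1, a Wnt effector of the hair matrix, was at least 1.98-fold lower at P13. Foxn1, the factor lost in the classical nude mouse, was at least 1.03-fold lower at P3 (adjusted p = 0.0152, limma). These factors were named beside member results, and whether any of them acts on a member was not tested.

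For each member the 3 genes with the most similar pattern over the 23 arrays with a group were found by Pearson's r, as a description of arrays that share ages, genotypes and chips. Dsg1b was nearest to the kallikrein protease gene Klk6 (r = 0.95), to D230004N01RIK (0.95) and to the retinol-binding protein gene Rbp2 (0.94). Dsg4 was nearest to the hair keratin Krt83 (0.94), Tbc1d30 (0.92) and LOC245128 (0.91). Dsg2 was nearest to the zinc finger gene Tshz1 (0.91), the collagen gene Col16a1 (0.90) and Zmym4 (0.89). Dsc1 was nearest to Cldnd1, Slc34a2 and Lgalsl (0.93 each), and Dsc3 to Cr1l (0.92), Mmadhc (0.91) and Mob4 (0.89). No member was among the 3 nearest genes of another. Between members, r was 0.68 for Dsg1b and Dsc1, 0.55 for Dsc1 and Dsc3, and -0.83 for Dsg1b and the brightest Dsg2 probe.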

How the data were processed

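RNA of peeled epidermis was hybridized to Illumina BeadChips, 24 arrays on 8 chips. The authors deposited 1 average bead intensity per probe and array, without normalization between arrays. In 4 arrays (chips G and H) some intensities were below 0, so a background had been subtracted there. Beside the intensities stood a detection p-value per probe, per the file headers. In some of these deposited columns the brightest probes held 1, so they were read as the fraction 1 minus p. The column of adult p53f/+ mutant 2 held bead numbers, so 1 per-sample column was left out. A second deposited table gave log2 values after normalization, for which the submitters' processing notes name limma. Other upstream steps are not given in the sources used here. No 2 arrays were copies (smallest SD of a log2 difference 0.331).

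Intensities were corrected by the normal-exponential model from detection p-values with an offset of 16, then quantile-normalized and log2-transformed with limma 3.58.1 in R 4.3.3. Adult p53f/+ mutant 2, which had no detection p-values, took its background from the other arrays of its chip. Of 45281 probes, 20431 were detected (p under 0.01) in at least 2 arrays, and the probe with the highest mean stood for each of 14215 genes. Of the probes, 27760 matched a current symbol and 7994 a synonym. One mean per group was fitted over all arrays with moderated statistics (12 residual and 3.89 prior degrees of freedom). The P3 array with conflicting labels had its own mean. Alternatives changed background correction, normalization, filter, probes, chip, arrays, weights and a fibroblast covariate. Those for single P20 chips and for differences between the effects of 2 ages were chosen after seeing the data. On simulated data with 200 genes changed by 2 on the log2 scale, 62% to 76.5% were called per age, 0 in the wrong direction. Of the calls, 3.12% to 9.42% were genes that had not been changed, the highest share at P6. These shares describe the simulated data only. In the real data many more genes passed at P6 (3234), and the fit with the chip as a random block gave a correlation of 0.4727. The simulated shares are therefore not read as error rates of the calls reported here.

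The members, gene lists and tests were chosen with earlier results of these data known. Named were all 8 members at every probe, Mad2l1, per contrast up to 3 genes of each list with the largest changes past the threshold, where a member result stood beside them, and the 3 nearest genes of each member. No sequence is printed.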

Additional observations from a re-analysis of the deposited data

Results flagged for a closer look

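The mutant effect differed between ages, by a test of the difference in limma with p adjusted over all genes, for 4 members. For Dsg1b the mean of the P6, P13 and P20 effects exceeded the P3 effect by 1.99 (adjusted p = 0.00893) and the P6 effect exceeded it by 2.60 (adjusted p = 0.00456). The P13 and P20 effects of Dsg1b did not differ from that of P3 with a call (adjusted p = 0.0504 and 0.112, limma). For the brightest Dsg2 probe the P6 effect was lower than the P3 effect, with a difference of -2.63 (adjusted p = 0.0292), lost in 6 of 10 fits that left out an array. For Dsc3 the difference was -3.84 between P13 and P6 (adjusted p = 0.00514) and -2.69 between P20 and P6 (adjusted p = 0.0362), the latter lost in 7 of 9 fits that left out an array (-3.80 to -1.58) and in 5 of 12 other settings (down to -0.25, adjusted p up to 0.954). For Dsg4 the fitted difference was -2.30 between P13 and P6 (adjusted p = 0.0363) and 2.68 between P20 and P13 (adjusted p = 0.0172). The probe was not detected in any mutant or in P20 controls, so these values follow the level in controls and do not measure a change in the response of mutants. Ages lay on different chips apart from P20 and adults, so chip and age cannot be told apart in these comparisons.

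In the P3 array with conflicting labels, which entered no comparison, Dsc3 was at 8.93, above the highest P3 control at 8.88. In the 4 P3 controls, the group large enough to examine, no array stood apart by Dixon's test for any of the 5 members.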

How the results depend on the processing

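No paired analysis was possible because the sample numbers in the labels run through each age and do not pair mutants with controls. Counts of genes past the threshold moved by over 1.5 times in these settings. With the chip as a fixed block they were 420 at P3, 4478 at P13, 2376 at P20, 2642 in adults and 1822 for the later ages against P3, and as a random block 439 at P3, 2451 at P20, 2752 in adults, 1943 for the later ages and 3830 for controls across ages. With array weights they were 471, 6520, 5544, 395 and 2693 at P3, P6, P13, P20 and in adults, 2438 for the later ages and 11804 for controls. Without the background-subtracted arrays they were 506, 5598, 5206 and 2855 at P3, P6, P13 and in adults and 2215 for the later ages. With only the compared groups they were 5958, 4827, 63 and 116 at P6, P13, P20 and in adults. With the fibroblast covariate they were 55 at P6, 196 in adults, 207 for the later ages and 2660 for controls. That covariate nearly coincided with genotype at P6, where the fit cannot separate them. The P6 count was 1753 within its chip, the P3 count 71 when the array of unclear genotype was counted as a mutant, and the adult count 823 in the authors' values, of 1667 genes. In settings chosen after seeing the data, P20 gave 792 on chip F and 2579 on chip G. The counts reported were 274, 3234, 2921, 1433 and 1688 at P3, P6, P13, P20 and in adults, 917 and 6412. Leaving out 1 array gave 137 to 268 at P3, 1753 to 2095 at P6, 1347 to 2210 at P13, 946 to 3228 at P20, 1292 to 2427 in adults, 314 to 1914 for the later ages and 4897 to 8597 for controls. The causes were not tested.

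Signs turned, in no case with a call, for Dsg4 at P20 (0.081 with the mean of probes, 0.0105 without background-subtracted arrays and 0.0103 on chip F), Dsc3 at P20 (0.76 without those arrays and 0.76 on chip F), Dsc3 in the later ages against P3 (0.13 without those arrays), and with the fibroblast covariate Dsc3 at P6 (-0.77) and in adults (-1.71). Leaving out 1 array, ranges crossed 0 for Dsc1 at P3 (-0.62 to 0.49), Dsc3 at P3 (-0.23 to 0.82), Dsc3 at P20 (-1.62 to 0.61), Dsg4 at P20 (-0.0917 to 0.0138), Dsc1 in adults (-0.15 to 1.66) and Dsc3 in the later ages (-0.81 to 0.24). Of all member values under alternatives, 738 kept direction and side of the threshold, 73 lost a call, 25 gained one and 17 turned. On the authors' values the Dsg1b differences were smaller, 1.67 at P6, and stayed called at P6, P13 and P20. Among called effects Dsg1b at P20 and in adults lost the call with only the compared groups (adjusted p = 0.111 and 0.302). Low signal limits Dsg4, detected in 7 arrays, and most groups hold 2 arrays. Not run: the chip as a fixed block for controls across ages, whose chips do not link them, and Dsg4 under detection in 12 arrays, where it was left out.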

Other observations

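The P3 array with a mutant genotype and the type of a control lay at 8.36 for Dsg1b, 7.44 for Dsg2, 6.57 for Dsg4, 8.57 for Dsc1 and 8.93 for Dsc3. Its Dsg4 probe was detected, as in 2 of 4 P3 controls and in neither P3 mutant. Its mean of the hair shaft list was 12.01, the lowest P3 control being at 12.01 and the P3 mutants at 8.91 and 8.93.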
